A study of Mus musculus with 2 samples.

Results

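Of the 7765 droplets of mouse pancreatic islet cells that passed the cell filter, 550 held 2 or more islet hormones. A droplet was counted as a member when at least 2 of 4 hormones each made up at least 5% of its UMIs (unique molecular identifiers, each standing for 1 captured transcript). The 4 hormones were insulin (Ins1 and Ins2 summed, written Ins below), glucagon (Gcg), somatostatin (Sst) and pancreatic polypeptide (Ppy). Another 5915 droplets held a single hormone at that share, and 1300 held none. The hormone shares chose the members, so they are given as a description. A 10x Genomics 3′ single-cell RNA library was made from each of the 2 groups of female C57BL/6J mice. The multipara group entered mating at 9 weeks of age, went through 3 consecutive pregnancies and gave islets 3 weeks after the last delivery. The virgin group consisted of age-matched littermates that were never pregnant. The labels name no drug or transgene for either group. With 1 library per group, and with the number of mice behind each library not given in the labels, no difference between virgin and multipara could be tested, and the intervals below cover counting error only.

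The virgin library listed 5463 barcodes with 94853806 UMIs, and the multipara library 5075 barcodes with 82503776 UMIs. The filter kept barcodes with over 200 and under 6000 detected genes, under 60000 UMIs and under 10% mitochondrial UMIs. It left 4391 virgin and 3374 multipara droplets with median UMI counts of 17366 and 18329.5. Doublets, droplets that hold more than 1 cell, were not removed. The doublet caller Scrublet marked 79 virgin droplets (1.80%) and 18 multipara droplets (0.533%), of which 36 and 9 were members. The libraries shared 7 barcode sequences among all listed barcodes, and 1 of them belonged to a member in at least 1 library.

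Islets hold several endocrine cell types, and each is known by the peptide it releases: beta cells by insulin, alpha cells by glucagon, delta cells by somatostatin and PP cells by pancreatic polypeptide. Insulin lowers and glucagon raises blood glucose, while somatostatin restrains the release of both. Pancreatic polypeptide and peptide YY (Pyy) belong to a single peptide family. In droplet sequencing, free RNA from broken cells and droplets with more than 1 cell can both bring a second hormone into a droplet, as can a cell that transcribes more than 1 hormone gene.

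On mouse build GRCm38 the 4 hormones are encoded at loci on different chromosomes. Ins1 lies at chr19:52264297-52265476 and Ins2 at chr7:142678656-142743381. The Ins2 span is printed as annotated and is far longer than the insulin transcript, since it includes a read-through transcript. Gcg lies at chr2:62474530-62483650, Sst at chr16:23889573-23890958 and Ppy at chr11:102099930-102101319. Pyy, at chr11:102106676-102107832, is the neighbour of Ppy, with 5356 bases between them. The promoters of the 3 hormones that paired with each other without insulin are shown because those pairs made up most members. Each is the 250 bases before the start of the RefSeq gene in GRCm38.p6, read 5′ to 3′ on the minus strand, whereas the gene positions above are GENCODE's. The GENCODE Sst gene starts further upstream and holds 114 of the 250 Sst bases, the cAMP response element among them, while those of Ppy and Gcg lie outside their genes. Capitals mark matches, on either strand, to the cAMP response element TGACGTCA, the TATA letters TATAAA and the homeodomain core TAAT. The stretches are chr16:23890845-23891094 for Sst, chr11:102101320-102101569 for Ppy and chr2:62483654-62483903 for Gcg.
Sst promoter: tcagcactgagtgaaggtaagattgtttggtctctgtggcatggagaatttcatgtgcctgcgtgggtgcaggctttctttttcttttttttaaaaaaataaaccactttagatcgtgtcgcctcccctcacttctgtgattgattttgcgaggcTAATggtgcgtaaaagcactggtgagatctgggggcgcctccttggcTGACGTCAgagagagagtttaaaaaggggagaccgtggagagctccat
Ppy promoter: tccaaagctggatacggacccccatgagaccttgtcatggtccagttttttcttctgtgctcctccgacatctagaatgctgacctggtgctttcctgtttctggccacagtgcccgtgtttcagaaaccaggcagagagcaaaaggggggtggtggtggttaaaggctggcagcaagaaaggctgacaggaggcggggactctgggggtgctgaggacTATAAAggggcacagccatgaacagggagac
Gcg promoter: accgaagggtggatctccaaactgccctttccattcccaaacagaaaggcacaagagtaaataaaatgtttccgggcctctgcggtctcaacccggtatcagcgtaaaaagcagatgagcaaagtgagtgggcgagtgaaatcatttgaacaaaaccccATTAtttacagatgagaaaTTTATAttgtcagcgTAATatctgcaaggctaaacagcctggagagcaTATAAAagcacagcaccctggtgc

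The Sst promoter held the cAMP response element starting 48 bases upstream of the RefSeq start and TAAT at 95 bases. The Ppy promoter held TATAAA at 31 bases and neither of the other motifs. The Gcg promoter held TATAAA letters at 72 and 24 bases and TAAT letters at 91 and 57 bases. No match overlapped another. Of 32851 RefSeq promoters of the same length, 508 (1.55%) held TGACGTCA, 4063 (12.4%) held TATAAA and 18041 (54.9%) held TAAT. None of these motifs was found in all 3 hormone promoters.

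Members made up 7.04% of kept virgin droplets (309 of 4391, exact Clopper-Pearson 95% interval 6.30 to 7.83%) and 7.14% of multipara droplets (241 of 3374, 6.30 to 8.06%). Sst+Ppy was the most frequent combination in both libraries. It accounted for 107 virgin droplets (2.44%, 2.0 to 2.94%) and 81 multipara droplets (2.40%, 1.91 to 2.98%). Gcg+Ppy followed with 67 (1.53%, 1.18 to 1.93%) and 64 (1.90%, 1.46 to 2.42%), and Ins+Gcg with 57 (1.30%, 0.985 to 1.68%) and 44 (1.30%, 0.949 to 1.75%). The remaining pairs were rarer. Gcg+Sst held 24 and 18 droplets, Ins+Ppy 23 and 13, and Ins+Sst 20 and 14. Droplets with 3 hormones numbered 11 and 7. They comprised Ins+Gcg+Ppy (5 virgin and 2 multipara), Gcg+Sst+Ppy (3 and 2) and Ins+Sst+Ppy (3 and 3). The intervals of virgin and multipara overlapped for every pair. Pairs that lacked insulin outnumbered those with it, at 198 against 100 virgin droplets (4.51% and 2.28%) and 163 against 71 multipara droplets (4.83% and 2.10%), although Ins-only droplets were the largest single-hormone class (1863 and 1712).

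**Figure D1:**
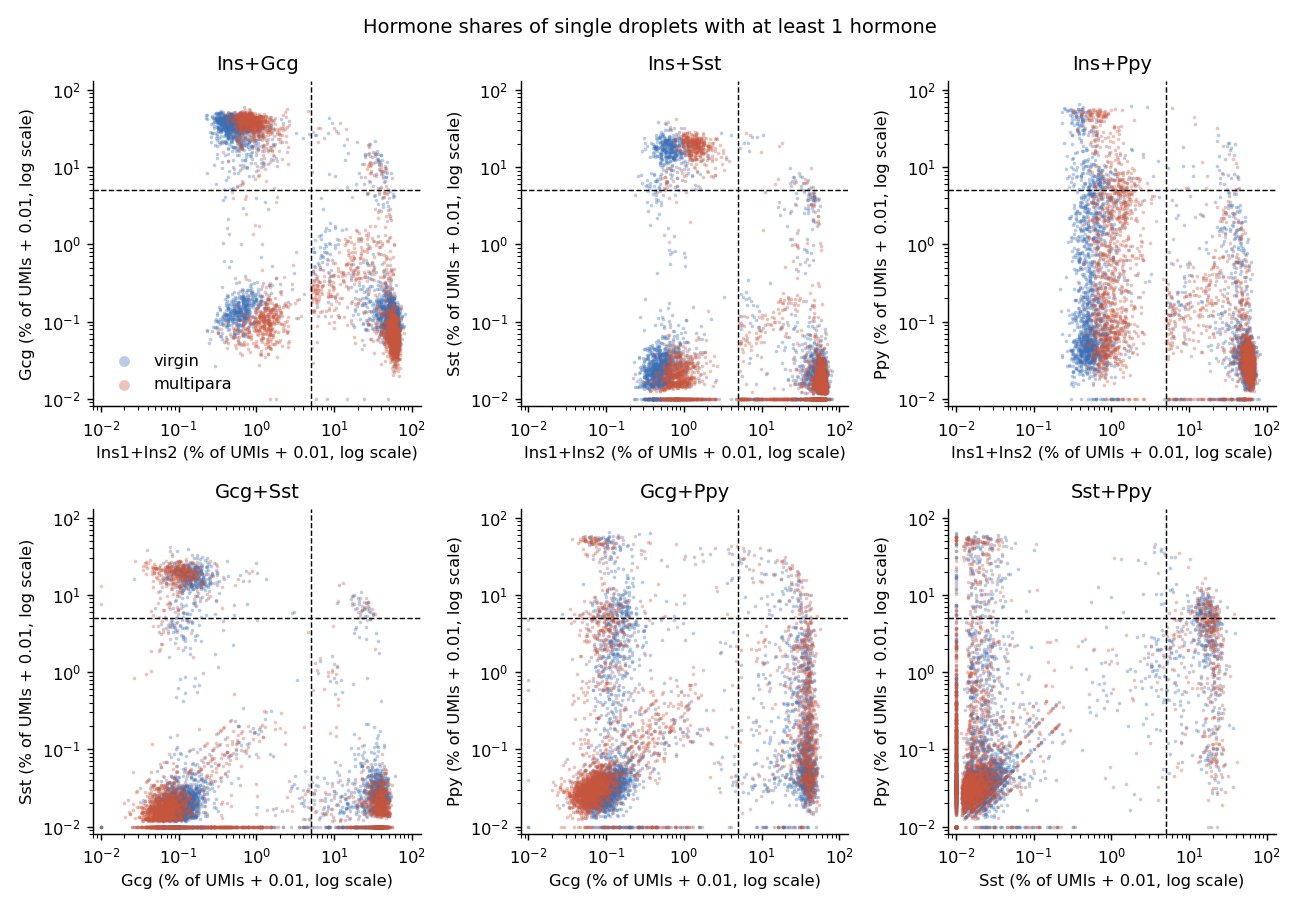
Share of UMIs from each hormone in single droplets with at least 1 hormone, 1 panel per pair, both axes in percent of UMIs plus 0.01 on a log scale, blue for virgin and red for multipara. Dashed lines mark 5%, and members of a pair lie in the upper right quadrant: the Sst+Ppy cloud straddles the Ppy line, while the Ins+Gcg droplets lie apart from the dense clouds at high Ins and at high Gcg.

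The second hormone of a pair was lower than in its own single-hormone class in every pair and library. In Gcg+Ppy droplets the median shares were 22.1% and 25.7% of UMIs for Gcg, against 36.6% and 38.9% in Gcg-only droplets, and 11.4% and 15.3% for Ppy. In Ins+Gcg droplets they were 33.5% and 29.4% for Ins, against 55.9% and 56.7% in Ins-only droplets, and 11.8% and 10.5% for Gcg. Gcg+Sst droplets held 23.9% and 22.2% Gcg with 6.89% and 7.29% Sst, against 17.9% and 20.1% Sst in Sst-only droplets. The pairs of Ins with Ppy and with Sst held 31.3% and 27.1% and 28.0% and 29.6% Ins. All hormones summed to a median of 32.8% and 36.8% of UMIs in members and 47.4% and 51.0% in single-hormone droplets. These shares follow in part from the rule, which sets a minimum for each hormone of a pair.

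Ppy was the hormone found least often alone. Of the droplets in which Ppy reached 5% of UMIs, 70.5% in virgin (208 of 295, 64.9 to 75.7%) and 65.5% in multipara (165 of 252, 59.3 to 71.3%) also held another hormone. The partner was Sst in 38.3% and 34.1% of Ppy droplets, Gcg in 25.4% and 27.0%, and Ins in 10.5% and 7.14%. Sst droplets came next, with another hormone in 38.2% (157 of 411) and 33.3% (118 of 354). Of Gcg droplets, 13.0% (156 of 1196) and 17.0% (130 of 766) held another hormone. Ins droplets were lowest at 5.48% (108 of 1971) and 4.25% (76 of 1788). The order of the 4 hormones was the same in both libraries, and the share was higher the fewer droplets held the hormone. A pair counts for both of its hormones, and the shares come from the values that set the rule, so they only describe.

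The same hormone shares were read in droplets with non-endocrine markers (at least 3 genes of an endothelial, immune, mesenchymal, acinar, ductal or Schwann list), which should lack islet hormones. There were 810 such droplets in virgin and 514 in multipara, with median UMI counts of 4316 and 4827.5. Ins reached 5% in 43 of them (5.31%) in virgin and 115 (22.4%) in multipara, at medians of 1.13% and 2.74% of UMIs. Ppy reached 5% in 3 (0.370%) and 4 (0.778%), Sst in 6 (0.741%) and 3 (0.584%), and Gcg in 16 (1.98%) and 5 (0.973%). At least 2 hormones reached 5% in 3 of 810 (0.370%, 0.0764 to 1.08%) and 2 of 514 (0.389%, 0.0472 to 1.40%). These shares cannot be set against the member share of 7.04% and 7.14% over all kept droplets. A droplet with a hormone of its own needs only 1 more to become a member. Ins was thus the hormone most often found at 5% in droplets with non-endocrine markers in both libraries, and more often in multipara. The 90th percentile of its share there was 2.78% in virgin and 9.88% in multipara. These markers do not exclude that a droplet also held an endocrine cell. The part of free insulin RNA in the pairs with Ins was not tested.

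The 5% threshold cut through a continuous range of Ppy in Sst droplets, but through a sparse range of Gcg in Ins droplets. Among the 361 virgin and 317 multipara droplets with Sst and neither Ins nor Gcg at 5%, the median Ppy share was 2.63% and 2.78%. Just outside the threshold, at 4 to 5% Ppy, lay 32 and 36 droplets with median UMI counts of 10642 and 10231.5. Just inside, at 5 to 6%, lay 30 and 31 droplets with 10700 and 10695 UMIs. By contrast, 1824 of 1920 virgin and 1660 of 1756 multipara Ins droplets held under 1% Gcg, with 11 and 8 at 4 to 5% and 4 and 4 at 5 to 6%. For Ppy in Gcg droplets the corresponding counts were 4 and 10 just outside and 5 and 5 just inside. In Sst+Ppy droplets the median shares were 15.6% and 16.5% for Sst and 6.84% and 6.67% for Ppy, against 42.2% and 46.8% for Ppy in Ppy-only droplets. Thus most Sst+Ppy members held Ppy near the threshold and well under the level of a Ppy-only droplet.

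UMI and gene numbers, which the rule did not set directly, separated the pairs into groups. Sst+Ppy droplets had the depth of Sst-only droplets. Their median was 10495 UMIs in virgin (95% order-statistic interval 10041 to 11201) and 10695 in multipara (10214 to 11413), against 10263.5 (9845 to 10652) and 10191.5 (9897 to 10588) for Sst only. Ppy-only droplets had 21878 and 22056. The Sst+Ppy median came to 0.327 and 0.332 of the sum of its single-hormone medians. Its detected genes, 3014 and 2961, likewise lay beside the 3023 and 2900.5 of Sst-only droplets. Gcg+Ppy droplets, with 16766 UMIs (15741 to 21759) and 20166 (18785 to 22093), lay between the 16365.5 and 17409 of Gcg-only droplets and the Ppy-only values. Their gene numbers of 3183 and 3231 were close to the 3161 and 3129.5 of Gcg-only and the 3115 and 3164 of Ppy-only droplets.

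Gcg+Sst droplets were deeper than either of their single-hormone classes. They had a median of 27497.5 UMIs in virgin (24508 to 30668) and 24729.5 in multipara (20540 to 28415). That was 1.03 and 0.896 times the sum of the Gcg-only and Sst-only medians, and 1.68 and 1.42 times the larger one. Their gene numbers, 4791.5 and 4494, exceeded the 3161 and 3129.5 of Gcg-only droplets. Ins+Gcg droplets were split by depth. Their medians were 36960 UMIs (32239 to 41223) in virgin and 13622.5 (1516 to 21224) in multipara, against 29840 and 31131 for Ins only. Among Ins+Gcg droplets with at least 5000 UMIs the medians were 41105 and 34171, or 0.859 and 0.661 of the summed single-hormone medians of droplets of that depth. Without the droplets that Scrublet marked, the virgin Ins+Gcg median was 0.581 of the Ins-only median, in place of 1.24. Genes in the droplets with at least 5000 UMIs numbered 5026 and 4640, against 3960 and 4019 in Ins-only droplets of that depth. Ins+Sst droplets had 28582 and 34139 UMIs and 4790 and 5026 genes, and Ins+Ppy droplets 23339 and 22679 UMIs and 4093 and 3484 genes. The 13 to 23 droplets behind each of these 4 medians gave wide intervals, such as 1747 to 35574 UMIs for Ins+Sst in virgin. Over all members the median was 0.753 and 0.685 of that of single-hormone droplets in UMIs and 0.949 and 0.907 in genes, and at a hormone minimum of 10% the UMI ratio was 1.25 in virgin.

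**Figure D2:**
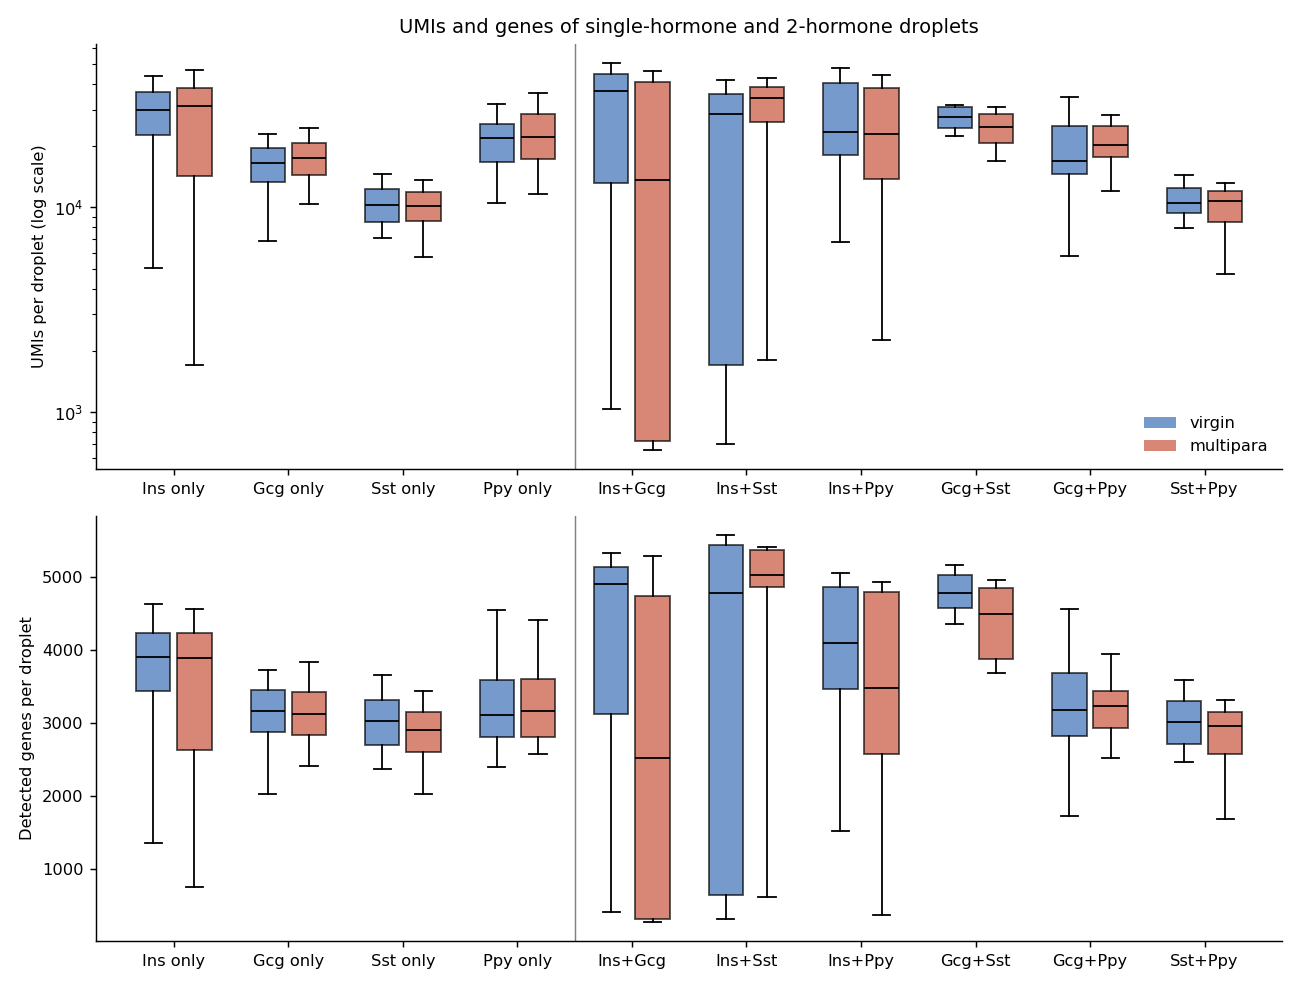
UMIs per droplet (log scale, upper panel) and detected genes per droplet (linear scale, lower panel) by hormone class in virgin (blue) and multipara (red). Boxes span the quartiles with the median as a line, and whiskers reach the 10th and 90th percentiles: Sst+Ppy boxes sit level with Sst-only boxes, Gcg+Sst boxes lie above both of theirs, and the Ins+Gcg and Ins+Sst boxes span the widest range.

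Shallow droplets were found among the pairs with insulin, among those without it and among single-hormone droplets. Under 5000 UMIs lay 18 of 100 virgin and 24 of 71 multipara droplets of these pairs, with medians of 827.5 and 763 UMIs and 355 and 307 genes. Of Ins-only droplets, 186 of 1863 (9.98%) and 307 of 1712 (17.9%) were under 5000 UMIs, with medians of 1715 and 1480. The shares were 8.27% and 5.35% of Gcg-only, 6.30% and 8.05% of Sst-only, and 8.05% and 0% of Ppy-only droplets. Of Ins+Gcg droplets, 11 in virgin and 18 in multipara were that shallow. In the pairs without insulin the numbers were 10 of 198 and 11 of 163. Scrublet marked 29 of 57 virgin and 6 of 44 multipara Ins+Gcg droplets. It marked none of the Sst+Ppy droplets in either library and 1 and 0 of the Gcg+Ppy droplets. Median Scrublet scores were 0.259 and 0.0997 for Ins+Gcg and 0.136 and 0.140 for Gcg+Sst. They were 0.0123 and 0.0089 for Sst+Ppy, beside 0.0128 and 0.0087 for Sst-only droplets. Without the marked droplets, pairs with insulin made up 1.60% of virgin droplets in place of 2.28%.

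Sst+Ppy droplets carried delta-cell genes at close to the level of Sst-only droplets. Levels are in CPM, the UMIs of a gene summed over the droplets of a class and scaled to the total of that class. Hhex, a transcription factor of delta cells, stood at 293 CPM in virgin and 298 CPM in multipara, against 353 and 364 in Sst-only and 16.3 and 7.65 in Ppy-only droplets. Hhex was detected in 85.0% and 92.6% of Sst+Ppy droplets. Rbp4, a retinol-binding protein abundant in delta cells, was at 4618 and 5769 CPM, against 5550.2 and 5734 in Sst-only and 371 and 293 in Ppy-only droplets. Iapp, the amylin precursor, was at 21659 and 23343, against 25083 and 28192 in Sst-only and 4119 and 2239 in Ppy-only droplets. Ptprz1, a receptor phosphatase, was at 80.8 and 103 CPM against 109 and 121 in Sst-only droplets. Spock3 was at 72.0 and 83.9 against 72.0 and 70.6. Of 4 delta genes at least 2-fold apart, 4 lay between the single-hormone levels in virgin and 2 in multipara, the others lying above the Sst-only level.

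Genes higher in Ppy-only droplets were near their Sst-only level. Ttr, transthyretin, was at 223 and 237 CPM, beside 231 and 195 in Sst-only and 2175 and 2268 in Ppy-only droplets. Pyy was above its Sst-only level in both libraries, at 49908 and 45447 in Sst+Ppy, 44945 and 37422 in Sst-only, and 121748 and 120639 in Ppy-only droplets.

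The Sst droplets with neither Ins nor Gcg were next split by Ppy share, below and above the threshold. From 0 to 1% through 1 to 5%, 5 to 10% and 10 to 20% Ppy, the virgin median UMI counts were 10396, 9936, 10436 and 10555.5. In multipara they were 9933, 10481.5, 10463 and 12040. In virgin neither depth nor Hhex followed the Ppy share over that range, Hhex being at 344, 359, 303 and 324 CPM. Ptprz1 was lower in each higher range in virgin, from 119 to 72.0 CPM, the last on 8 UMIs, but not in multipara, where it was at 123 and 118 CPM in the outer ranges. In multipara Hhex was at 347, 377, 338 and 188 CPM, the last over 9 droplets. The 3 droplets per library with at least 20% Ppy differed. They had medians of 32187 and 25881 UMIs and of 4795 and 3997 genes. Hhex was at 154 and 91.4 CPM in them, Iapp at 3541 and 9994 and Pyy at 100487 and 97419. A few deep droplets with low Hhex and high Pyy thus stood apart from the bulk of the Sst+Ppy class, which had the depth and Hhex level of Sst-only droplets. Chga, of the pan-endocrine list, was higher in each range up to 20% Ppy, at 3743, 4467, 4734 and 7541 CPM in virgin. In multipara it was at 3309, 4558, 4643 and 6428 CPM, the last values being over 10 and 9 droplets. At 20% Ppy or more it was at 3007 and 1333 CPM.

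Gcg+Ppy droplets showed levels between those of Gcg-only and Ppy-only droplets for most alpha genes. Ttr was at 13287 and 10608 CPM, between 39015 and 38462 in Gcg-only and 2175 and 2268 in Ppy-only droplets. The homeobox genes Irx1 and Irx2 were at 40.2 and 32.2 and at 50 and 58.4 CPM, against 96.7 and 88.0 and 104 and 93.8 in Gcg-only droplets. Pyy was at 88135 and 83028, nearer to the 121748 and 120639 of Ppy-only than to the 15489 and 16814 of Gcg-only droplets.

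The alpha genes Ttr and Irx1 were lower at higher Ppy shares of a Gcg droplet. Over 0 to 1%, 1 to 5%, 5 to 10%, 10 to 20% and at least 20% Ppy, Ttr stood at 40109, 31617, 16968, 11711 and 9548 CPM in virgin. In multipara it stood at 40488, 28360, 16191, 8797 and 7604 CPM. Irx1 went from 100.2 to 18.2 in virgin and from 91.4 to 17.6 in multipara between the outer ranges. Pyy was higher over the same ranges, going from 10983 to 102521 and from 12953 to 98868. Median UMIs moved little, between 16077 and 20430 in virgin and 17306 and 20347 in multipara, although the classes held only 15 to 27 droplets per range above the threshold. The gradient was thus present below the threshold as well, in droplets that the rule did not count as members.

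**Figure D3:**
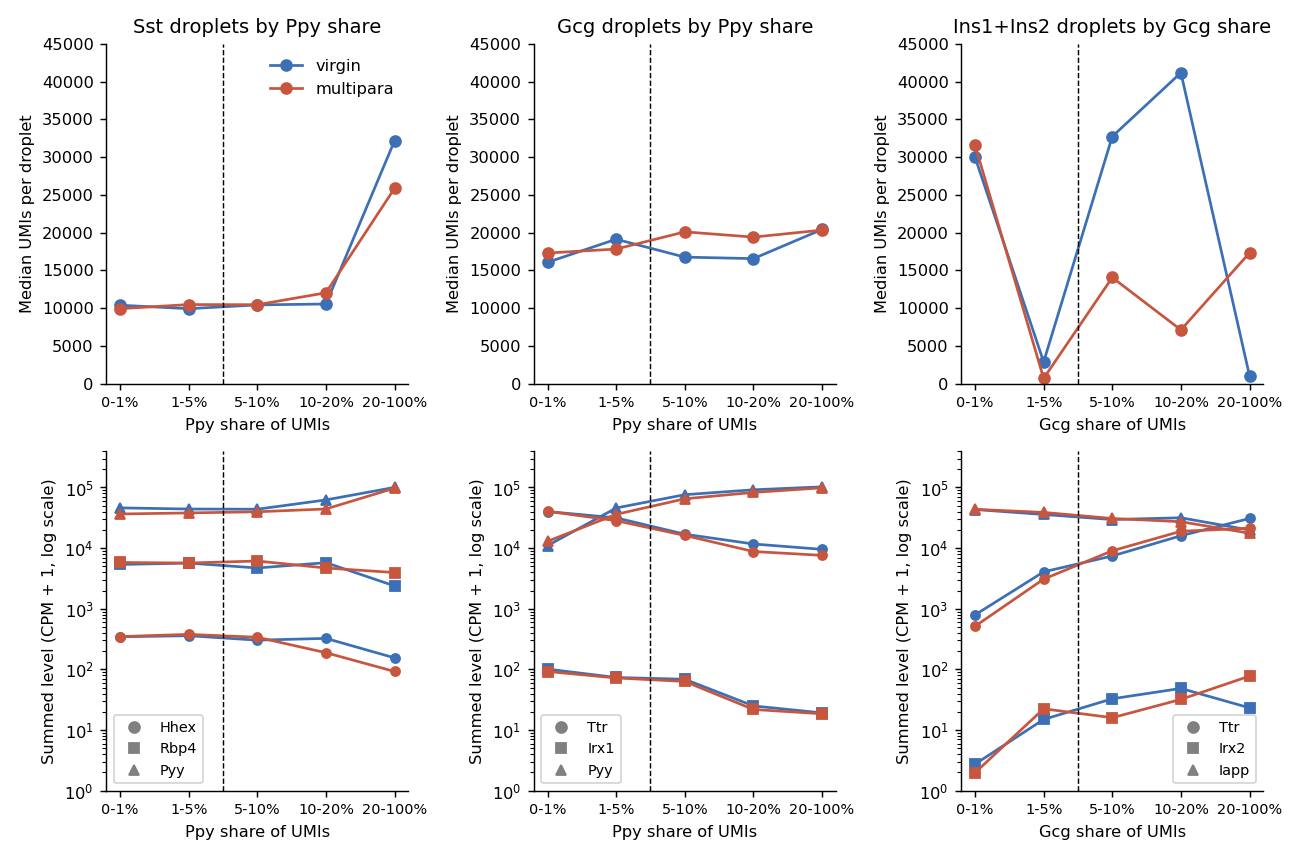
Median UMIs per droplet (upper row) and summed levels of marker genes in CPM plus 1 on a log scale (lower row) in Sst, Gcg and Ins1+Ins2 droplets, split by the share of a second hormone in percent of UMIs, with virgin in blue and multipara in red and the dashed line at 5%. Hhex and Rbp4 stay level in Sst droplets up to 10% Ppy, Ttr and Irx1 are lower and Pyy higher at higher Ppy shares of Gcg droplets, and Ttr is higher and Iapp lower at the highest Gcg shares of Ins droplets.

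Ins+Gcg droplets carried beta and alpha genes side by side. Among beta genes, Mafa, a transcription factor of mature beta cells, stood at 171 and 191 CPM, against 324 and 337 in Ins-only and 4.92 and 8.09 in Gcg-only droplets. Ucn3, urocortin 3, was at 130 and 151 and the glucose transporter Slc2a2 at 167 and 126. Iapp was at 30144 and 27170, against 43312 and 43645 in Ins-only droplets. All 10 beta genes of the list lay between the Ins-only and Gcg-only levels in both libraries.

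The alpha genes did likewise. Irx2 was at 40.7 and 31.9 CPM, against 1.82 and 1.06 in Ins-only and 104 and 93.8 in Gcg-only droplets. Ttr was at 14416 and 14714, between 813 and 524 and 39015 and 38462. Gc, the vitamin D-binding protein, was at 66.3 and 85.0, between 8.70 and 2.73 and 160.2 and 148. The 8 alpha genes with enough reads lay between the single-hormone levels in both libraries. In Ins droplets, Ttr was higher with the Gcg share, going from 791 CPM under 1% Gcg to 4064, 7427, 16007 and 30856 in the ranges above it in virgin. The depth of those ranges was uneven: the 39 virgin droplets with 1 to 5% Gcg had a median of 2883 UMIs and the 52 multipara droplets 706.5, and those with 10 to 20% had 41194 and 7127.

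The 24 virgin and 18 multipara Gcg+Sst droplets held alpha and delta genes together. Ttr was at 24941 and 25247 CPM, Irx1 at 56.7 and 67.7, Irx2 at 72.0 and 46.7, Hhex at 173 and 147 and Rbp4 at 2987 and 2873. Each of these lay between the Gcg-only and Sst-only levels. Hhex was detected in 91.7% and 77.8% of these droplets, and Irx1 in 62.5% and 77.8%. Gcg droplets with 1 to 5% Sst numbered 13 and 2, beside 1027 and 634 with under 1%. Seen from the other side, 0 Sst droplets in either library held Gcg at 3 to 6%, so the threshold did not cut through a continuous range of Gcg.

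Ins+Sst droplets were low in some mature beta genes. Mafa was at 36.5 and 57.8 CPM and Ucn3 at 64.5 and 28.9, against 324 and 337 and 234 and 254 in Ins-only droplets. Hhex was at 118 and 140 and Rbp4 at 2874 and 2990. The position of Mafa between Ins only (0) and Sst only (1) was 0.91 and 0.87, on 17 and 24 UMIs. In Ins+Ppy droplets Mafa was at 156 and 135 CPM and Ucn3 at 184 and 62.8. Pyy was at 48610 and 40999, between 768 and 280 in Ins-only and 121748 and 120639 in Ppy-only droplets. Droplets with 3 hormones were too few for gene levels. Their median UMI counts were 26966 and 29867 for Gcg+Sst+Ppy, 28700 and 23218 for Ins+Gcg+Ppy, and 1440 and 1237 for Ins+Sst+Ppy.

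To compare marker content at equal depth, each droplet was thinned to 5000 UMIs, and those with at least 2 different non-hormone markers of both cell types were counted. Shallower droplets were left out, 11 of 57 and 18 of 44 for Ins+Gcg. In Ins+Gcg droplets 43 of 46 in virgin (93.5%, 82.1 to 98.6%) and 24 of 26 in multipara (92.3%, 74.9 to 99.1%) held beta and alpha markers together. The same held for 28.5% and 21.7% of Ins-only and 41.2% and 38.2% of Gcg-only droplets, and 8.26% and 9.62% of droplets with no hormone. Gcg+Sst droplets held alpha and delta markers together in 17 of 24 (70.8%, 48.9 to 87.4%) and 11 of 17 (64.7%, 38.3 to 85.8%). Gcg-only droplets did so in 0.943% and 0.498%, and Sst-only droplets in 30.3% and 22.6%. For these 2 pairs the intervals lay above those of both single-hormone classes in both libraries.

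The pairs of Ppy with Gcg or Sst did not stand out in this way. Gcg+Ppy droplets held alpha and PP markers together in 29 of 60 (48.3%, 35.2 to 61.6%) and 32 of 63 (50.8%, 37.9 to 63.6%), beside 46.5% and 46.7% in Gcg-only and 48.8% and 31.0% in Ppy-only droplets. Sst+Ppy droplets held delta and PP markers together in 75 of 104 (72.1%, 62.5 to 80.5%) and 42 of 72 (58.3%, 46.1 to 69.8%). Sst-only droplets did so in 70.6% and 73.7%, and Ppy-only droplets in 6.25% and 1.15%. Sst-only droplets themselves held a median of 2 PP markers, with Pyy in 100% of them and Meis2 in 91.3% and 89.8% before thinning. The intervals of Sst+Ppy and Sst-only droplets overlapped in both libraries, in multipara only narrowly (46.1 to 69.8% against 67.3 to 79.5%). The difference was not tested.

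Ins+Sst droplets held beta and delta markers together in 4 of 14 (28.6%, 8.39 to 58.1%) and 8 of 11 (72.7%, 39.0 to 94.0%), beside 1.73% and 0.854% of Ins-only and 34.5% and 34.1% of Sst-only droplets. Ins+Ppy droplets held beta and PP markers together in 14 of 22 in virgin (63.6%, 40.7 to 82.8%), above the 14.2% of Ins-only and the 27.5% of Ppy-only droplets (18.1 to 38.6%), with no overlap of intervals. In multipara 4 of 10 did so (40.0%, 12.2 to 73.8%), an interval that overlapped both the 11.5% of Ins-only (9.91 to 13.3%) and the 9.20% of Ppy-only droplets (4.05 to 17.3%).

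**Figure D4:**
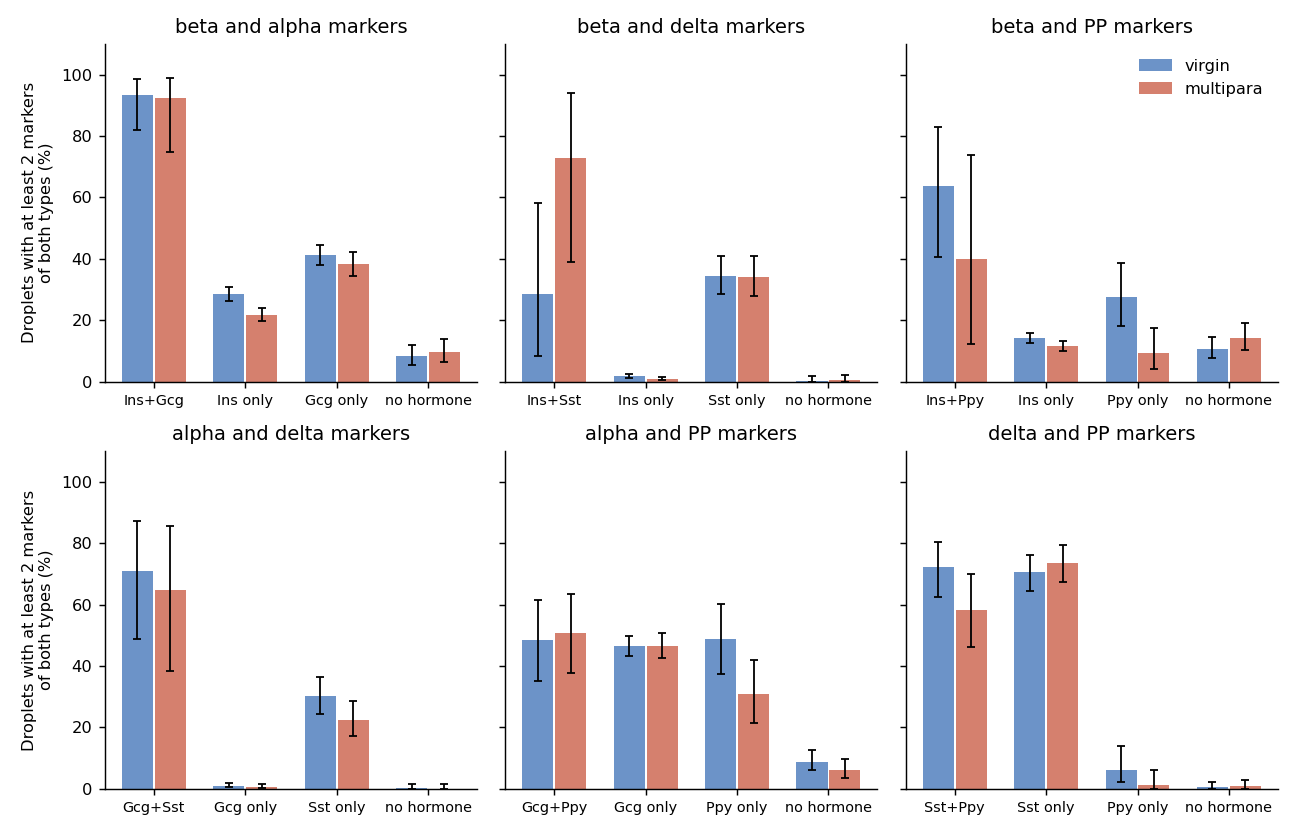
Share of droplets, in percent, with at least 2 markers of both cell types after thinning to 5000 UMIs, for each pair beside its single-hormone classes and droplets with no hormone, virgin in blue and multipara in red. Bars start at 0 and error bars are exact 95% intervals: Ins+Gcg reaches 93.5% and 92.3% against at most 41.2% in its single-hormone classes, whereas Sst+Ppy at 72.1% and 58.3% lies beside Sst only at 70.6% and 73.7%. The PP list did not separate Ppy-only from Gcg-only or Sst-only droplets.

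The comparison was then extended to all genes with at least 50 CPM in a pair or in 1 of its 2 single-hormone classes, leaving out the hormone genes themselves. A gene counted as differing when those classes were at least 2-fold apart, and its position in the pair was set on a linear scale from 0 (first hormone only) to 1 (second hormone only). In Ins+Gcg droplets 434 of 439 such genes in virgin (98.9%) and 432 of 450 in multipara (96%) lay between the 2 levels. The median position was 0.38 and 0.43. In Gcg+Ppy droplets 126 of 131 (96.2%) and 117 of 120 (97.5%) lay between, at median positions of 0.45 and 0.51. Gcg+Sst droplets, added to this comparison after the data were seen, gave 467 of 482 (96.9%) and 456 of 487 (93.6%), at 0.37 and 0.40. The median positions of these 3 pairs thus lay from 0.37 to 0.51 of the way between their single-hormone classes. With hormone UMIs taken out of the totals they were 0.46 and 0.48 for Ins+Gcg, 0.43 and 0.46 for Gcg+Ppy, and 0.43 and 0.44 for Gcg+Sst.

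Sst+Ppy droplets sat nearer the Sst end in virgin and, against all Sst-only droplets, in multipara. Of 750 differing genes in virgin 607 (80.9%) lay between, and of 784 in multipara 618 (78.8%), at median positions of 0.17 and 0.16. Hormone RNA made up a median of 43.5% and 48.0% of UMIs in Ppy-only droplets but 20.5% and 23.3% in Sst-only droplets, which lowers the CPM of all other genes in the former. With hormone UMIs taken out of the totals, 386 and 438 genes differed, 71.8% and 68.0% of them lay between, and the median positions were 0.12 and 0.09. The placement in multipara depended on which single-hormone droplets were used. Against those with each other hormone under 1% of UMIs, the median position was 0.20 in virgin and 0.39 in multipara (quartiles 0.13 and 0.61), where Gcg+Sst stood at 0.28, Gcg+Ppy at 0.43 and Ins+Gcg at 0.43. That choice left 85 of 254 Sst-only droplets in virgin and 9 of 236 in multipara.

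**Figure D5:**
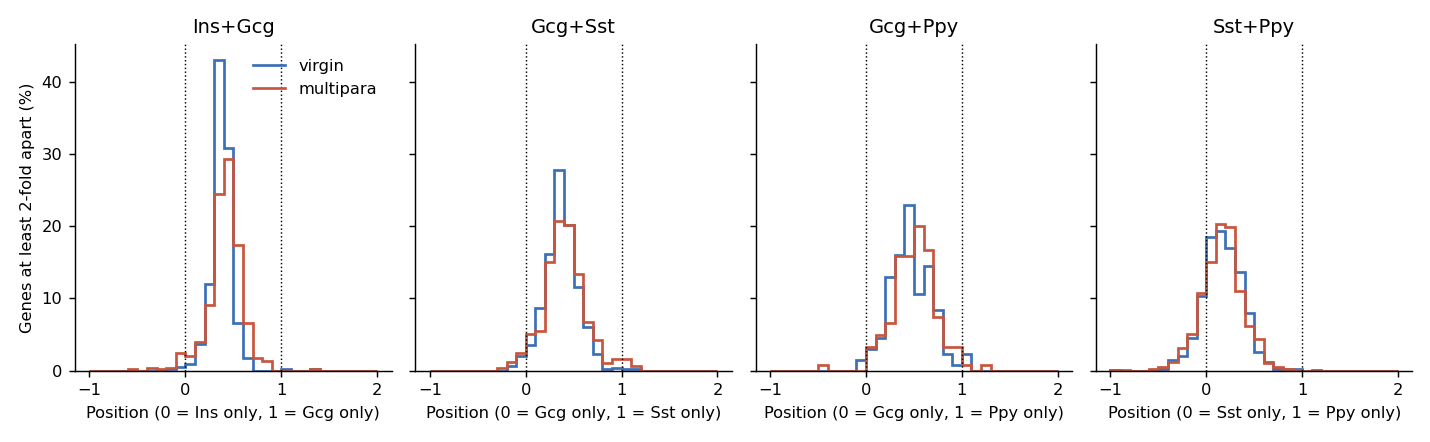
Distribution over genes of the position of a pair between its single-hormone classes, 1 panel per pair, the vertical axis giving the percent of genes at least 2-fold apart and the horizontal axis the position from 0 (first hormone only) to 1 (second hormone only), with virgin in blue and multipara in red. Drawn against all single-hormone droplets, Ins+Gcg, Gcg+Sst and Gcg+Ppy peak between 0.3 and 0.6, with medians from 0.37 to 0.51, while Sst+Ppy peaks near 0.1 to 0.2, with medians of 0.17 and 0.16.

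Few or no genes lay outside both single-hormone levels by 2-fold in both libraries. In Ins+Gcg droplets 0 of 1753 genes (0%) lay at least 2-fold above the higher class and 1 (0.057%) at least 2-fold below the lower. That gene was Apoe, the apolipoprotein E gene, with 10 and 11 UMIs (5.58 and 13.0 CPM). It stood at 14.9 and 90.1 CPM in Ins-only and at 69.9 and 76.9 CPM in Gcg-only droplets, and it reached 3896 and 9042 CPM in droplets with no hormone. For Gcg+Ppy the counts were 0 of 1651 above (0%) and 0 below (0%), for Sst+Ppy 0 of 2422 and 0 (0% each), and for Gcg+Sst 0 of 2473 and 0 (0% each). These counts come from sums over droplets with no test. With each droplet weighted equally, 3 genes lay at least 2-fold above in Ins+Gcg droplets and the log2 value of Apoe turned from -1.27 to 0.98. At 200 CPM, at 5000 UMIs or more and without the droplets that Scrublet marked, 0 genes lay at least 2-fold below in these droplets.

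The gene furthest above both single-hormone classes was Cela1 in Sst+Ppy droplets. Cela1 encodes a chymotrypsin-like elastase and was on the acinar list. It stood at 250 CPM in virgin (312 UMIs in 56.1% of droplets) and 231 CPM in multipara (198 UMIs in 45.7%). Sst-only droplets held 117 and 126 CPM, Ppy-only droplets 16.3 and 12.0, and droplets with no hormone 2.07 and 2.89. The log2 ratios over Sst-only droplets were 1.09 and 0.87. Each of the other 4 acinar genes had 0 or 1 UMI in virgin and 3 or 4 in multipara Sst+Ppy droplets, so Cela1 was high without the rest of its list. Calb1, the calcium-binding protein calbindin, was at 311 and 225 CPM against 255 and 182 in Sst-only droplets (log2 ratio 0.29 and 0.30). Spen, Tmem55b and Ndfip2 completed the 5 highest, with log2 ratios from 0.30 to 0.75 on 60 to 112 UMIs.

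In the other pairs the 5 highest genes exceeded the higher class by small amounts. For Ins+Gcg they were Larp4b, Rnf6, Rchy1, Ppp2r5c and Ptprf, with log2 ratios of 0.18 to 0.43. For Gcg+Ppy they were Serp1, Trappc1, Erlec1, 1500011B03Rik and Prorsd1, with 0.22 to 0.38. Serp1 and Erlec1, which act in the endoplasmic reticulum, stood at 127 and 139 and at 97.8 and 86.8 CPM. For Gcg+Sst they were Ap2a2, Rapgef4, Clock, Lpin2 and Dpysl2, with 0.30 to 0.47 on 25 to 53 UMIs each.

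Below the lower class, besides Apoe, Ins+Gcg droplets had Hbb-bs, a beta-globin gene, at 0 and 11.8 CPM from 0 and 10 UMIs, and Vps29, Mettl9 and Tmem258 with log2 ratios of -0.42 to -0.14. Gcg+Ppy droplets had Hspa1a, a heat-shock chaperone, at 92.5 and 76.3 CPM against 128 and 132 in Gcg-only droplets, followed by Apoe, Psmd13, Nxf1 and Rhou. Sst+Ppy droplets had Nbdy, Gadd45b, Tmsb10, Pappa2 and Gfpt1, with log2 ratios of -0.80 to -0.11. Gcg+Sst droplets had Snhg11, AY036118, Apoe, Aplp2 and Arpc5, with -1.19 to -0.28. Apoe was thus among the 5 lowest genes in 3 of the 4 pairs, on 2 to 11 UMIs in each class.

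Other cell types were at low levels in the members. In the 6 pairs the macrophage list summed to 0.80 to 12.6 CPM, against 1496 and 3570 CPM in droplets with no hormone. The T cell list was at 0 in 8 of the 12 sums of pair and library. The endothelial list summed to 7.48 to 66.0 CPM, against 5586 and 9516. The B cell list reached 103 CPM in virgin Ins+Sst droplets, against 12677 in droplets with no hormone. The mesenchymal list summed to at most 9.73 CPM. The ductal list summed to 78.4 to 147 CPM in the pairs, above the 44.6 and 7.39 CPM of droplets with no hormone and beside 86.0 to 129 CPM in single-hormone droplets. The Schwann list summed to 8.98 to 24.5 CPM, beside 8.72 to 30.2 CPM in single-hormone droplets. The acinar list reached 251 and 246 CPM in Sst+Ppy droplets, nearly all of it Cela1.

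Genes of endocrine progenitors did not exceed their Sst-only level, and those of dividing cells were scarce. Neurog3, the transcription factor of endocrine progenitors, had 40 and 22 UMIs in Sst+Ppy droplets (32.0 and 25.6 CPM, in 25.2% and 22.2% of droplets), beside 45.9 and 30.3 CPM in Sst-only and 1.58 and 0 in Ppy-only droplets. The 7 progenitor genes together summed to 22.0 to 114 CPM over the pairs, against 144 and 129 in Sst-only droplets. Sst+Ppy droplets held 1 and 0 UMIs over the 10 cell cycle genes. The highest sum was 38.9 CPM in multipara Gcg+Ppy droplets, from 52 UMIs, against 36.8 in multipara Gcg-only droplets and 1.52 in virgin Gcg+Ppy droplets. Mki67, a marker of cycling cells, was found in 4.69% of the multipara Gcg+Ppy droplets with 13 UMIs.

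The 9 stress genes that the study picked on these same samples were compared between libraries within the members, so their direction is not independent evidence. In pairs with insulin all 9 were higher in multipara than in virgin, with a median log2 ratio of 0.66. Of all 1712 genes with at least 50 CPM in either library, 53.4% were higher in multipara in these pairs. In Ins-only droplets all 9 were higher, with a median of 0.49, beside 41.1% of all such genes. Nupr1, a stress-induced transcriptional regulator, had 97 UMIs in virgin (33.8 CPM) and 180 in multipara (114 CPM), a log2 ratio of 1.75 (exact 95% interval 1.39 to 2.13). In Ins-only droplets it had 87.4 and 249 CPM, a log2 ratio of 1.51. Sdf2l1 and Fkbp11, which help fold secreted proteins, had ratios of 1.02 (0.81 to 1.24) and 0.96 (0.66 to 1.26), and Ddit3, the stress factor CHOP, 0.77 (0.54 to 1.0). Atf3 was level at 525 and 536 CPM, a ratio of 0.03 (-0.09 to 0.15), and Atf5 had 0.13 (-0.21 to 0.47), so both intervals spanned 0. Hspa1a had 0.66 (0.49 to 0.82), which turned to -0.10 at a hormone minimum of 10%.

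The same genes were read in pairs without insulin. In Sst+Ppy droplets 7 of 9 genes were higher in multipara, beside 40.6% of all genes with at least 50 CPM, with Dnajb1, a heat-shock co-chaperone, at 0.79 (0.63 to 0.95). Sst-only droplets had 6 of 9, beside 32.3%, and a median of 0.34. In Gcg+Ppy droplets 7 of 9 were higher, beside 33% of all genes. Only Dnajb1 had an interval above 0 there, at 0.30 (0.02 to 0.58), and Atf3 and Fkbp11 were level at 0.02 and 0.01. The counts of 7 in Sst+Ppy and Gcg+Ppy droplets each include Nupr1. Nupr1 had 0 and 8 UMIs in Sst+Ppy and 0 and 2 in Gcg+Ppy droplets and so no ratio in either. The medians over the 8 genes with a ratio were 0.38 in Sst+Ppy and 0.06 in Gcg+Ppy droplets. The 2 libraries are the only samples, so these intervals cover UMI counting and not the spread between mice.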

How the data were processed

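The deposited files held raw UMI counts per gene and barcode for the 2 libraries. Reads were aligned and counted by the authors in Cell Ranger 3.1.0. The submitters' processing notes also name Seurat 3.0, GRCm38 and mm10. The counts were used as deposited, 94853806 and 82503776 UMIs in all. Droplets were filtered, assigned to hormone classes at 5% of UMIs and summed by class, and CPM was computed here from the summed counts. Doublets were not removed. Scrublet, as run in scanpy 1.11.5, served as an alternative, with expected rates of 3.51% and 2.70%. Shares carry exact Clopper-Pearson 95% intervals and medians order-statistic intervals. Cells are not replicates, so no test between libraries was made. Genes were named by rule, the 5 furthest above and the 5 furthest below both single-hormone classes in both libraries, ranked by the smaller of the 2 changes on log2(CPM + 1), in pairs with at least 20 droplets per library. Gcg+Sst, with 24 and 18 droplets, was added after the data were seen. Other named genes came from 17 marker lists and the study's stress genes. Members and lists were chosen with earlier results of these data known. Scripts were tested on simulated data and run in Python 3.11.15 with numpy 2.4.6, scipy 1.17.1 and pandas 2.3.3. Marker sets at equal depth used 5000 UMIs per droplet. Some marker genes of the lists are not reported here.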

Additional observations from a re-analysis of the deposited data

Results flagged for a closer look

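Droplets with 2 or more hormones also appeared in data that the report left out, the barcodes beyond the upper limits on genes or UMIs. In virgin, 18 of 86 such barcodes (20.9%, exact 95% interval 12.9 to 31.1%) met the hormone rule, and in multipara 8 of 95 (8.42%, 3.71 to 15.9%). There were no control samples for this measure. Of the virgin barcodes 9 were Ins+Gcg, 4 Ins+Sst, 2 Gcg+Ppy and 1 each Ins+Ppy, Gcg+Sst and Sst+Ppy. Of the multipara barcodes 4 were Ins+Gcg and 1 each Ins+Ppy and Gcg+Ppy, the rest holding 3 hormones. The share in kept droplets was 7.04% and 7.14%.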

How the results depend on the processing

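No paired analysis was possible because there was 1 library per group, and no replicate could be left out. Values are given as virgin and multipara where both moved, and the cause was not tested. The member share (7.04% and 7.14%) became 13.2% and 14.5% at a 2% minimum, 2.03% and 2.13% at 10%, 0.205% and 0.207% at 20%, and 6.28% and 5.52% with no cell filter. It was 7.85% in virgin after thinning and 6.25% in multipara less the mean share of non-endocrine droplets. Pairs with insulin (2.28% and 2.10%) became 3.73% and 3.82%, 1.07% and 0.830%, and 0.137% and 0.0296% at those minimums, and 1.60% in virgin without Scrublet calls. Pairs without insulin (4.51% and 4.83%) became 8.27% and 9.04%, 0.957% and 1.27%, and 0.0683% and 0.178%. They were 3.75% and 3.31% with no cell filter, and 5.29% in virgin both at 5000 UMIs or more and after thinning. The UMI ratio of members to single-hormone droplets turned from 0.753 to 1.25 (10%) and 1.68 (20%) in virgin, and from 0.685 to 1.09 (no cell filter) in multipara, where it was 0.547 against singles with under 1% of other hormones. The gene ratio turned from 0.949 to 1.20 and 1.29 in virgin and from 0.907 to 1.10 in multipara, and was 0.842 against those singles.

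Droplets with both marker sets (Ins+Gcg, Gcg+Ppy and Sst+Ppy: 93.5%, 48.3% and 72.1% in virgin, 92.3%, 50.8% and 58.3% in multipara) became 78.7%, 34.9% and 44.8%, and 50%, 28.1% and 41.9%, at 3000 UMIs. At 10000 they were 100%, 83.1% and 89.4%, and 100%, 84.2% and 94.1%. Not thinned, they were 86.6% (Gcg+Ppy) and 89.7% (Sst+Ppy) in virgin, and 65.9%, 87.5% and 87.7% in multipara. With 1 marker of each they were 100% throughout, and with 3 they were 54.3%, 0% and 1.92%, and 61.5%, 1.59% and 2.78%. At a 10% minimum Sst+Ppy was 87.5% and 44.4% and Ins+Gcg 100% in multipara, and at 20% in virgin Ins+Gcg was 100% and Gcg+Ppy 66.7%.

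Genes lying between the single-hormone levels moved for Ins+Gcg to 96.1% and 90.2% (10 CPM), 98.9% (200 CPM, multipara), 93.3% and 80.3% (droplets weighted equally) and 97.3% (without Scrublet calls, virgin). For Gcg+Ppy they moved to 86.2% and 88.2% (10 CPM) and 100% in both (200 CPM). For Sst+Ppy they moved to 71.8% and 68.0% (without hormone genes), 71.7% and 68.8% (median of ratios), 75.5% and 72.1% (10 CPM), 87.0% and 89.0% (200 CPM), and in multipara 73.1% (equal weight) and 82.2% (cleaner singles). Against cleaner singles, of which 9 Sst-only droplets remained in multipara, the median Sst+Ppy position was 0.20 and 0.39. The 1 Ins+Gcg gene at least 2-fold below became 2 without hormone genes, 6 at 10 CPM, 2 against cleaner singles and 0 at 200 CPM, with equal weight, at 5000 UMIs or more and without Scrublet calls. The 0 above became 3 with equal weight. At 10 CPM Gcg+Ppy had 1 below, and Sst+Ppy 1 above and 4 below.

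Single values that turned were the Ins+Gcg depth over the larger single class without Scrublet calls in virgin (UMIs 1.24 to 0.581, genes 1.26 to 0.897) and at 5000 UMIs or more in multipara (UMIs 0.438 to 1.01). Gcg+Sst UMIs in multipara turned at 10% (1.42 to 0.955), Apoe in Ins+Gcg with equal weight (log2 -1.27 to 0.98), and Hspa1a in pairs with insulin at 10% (log2 0.66 to -0.10). Of the other single values 649 kept within the limits and 152 moved. Droplet numbers, 13 to 107 per pair and library at the 5% minimum, limited the precision, and members were fewer at 10% and 20%. Only 1 multipara Gcg droplet with Ins and Ppy under 5% held Sst at 10% or more.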
